A study of Homo sapiens with 14 samples.

Results

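The replication origin and fork proteins are 40 genes whose products choose replication origins, load and switch on the replicative helicase, and copy DNA at the moving fork. They were chosen by name from what is known of these complexes. The rule uses no measured value, but the list was drawn up with earlier results of these data known. All 40 were found in each of the 4 guide count tables. They account for 40 of the 19114 genes and 160 of the 77441 guides of the knockout library, with 4 guides each. In the activation library they account for 40 of 18886 genes and 118 of 56762 guides, with 3 guides each except ORC1, which has 1.

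The study ran pooled CRISPR screens in RKO and SW620, 2 established human colorectal cancer cell lines, to find genes that change how cells fare under oxaliplatin, a platinum compound given for colorectal cancer that damages DNA. Knockout cells of both lines carried Cas9 with the Brunello guide library, and activation cells carried dCas9-VP64, a cutting-dead Cas9 that raises transcription where a guide directs it, with the Calabrese library. Each RKO screen holds oxaliplatin day 20 (1.9 µM), untreated day 20 and day 0. Each SW620 screen holds untreated day 20, oxaliplatin day 20 at 0.38 and at 0.5 µM, and day 0. All cells had been selected with blasticidin for Cas9 or dCas9-VP64 and with puromycin for 3 days after infection at a multiplicity of about 0.3. The labels name 1 library per condition, and they do not say whether the Cas9 cells were a pool or a clone or how many times the lines divided. Every test below therefore compares the 2 libraries named, across the guides of a gene, and no difference was set against the spread between cultures. The guides of a gene are separate perturbations in the same libraries and are not replicates.

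Before a cell copies its genome, the origin recognition complex with CDC6 and CDT1 loads the ring-shaped MCM2-7 helicase onto DNA. In S phase, CDC45 and the GINS complex join MCM2-7 to form the active helicase, polymerase alpha-primase lays down primers, and polymerases epsilon and delta extend the leading and lagging strands, held to DNA by the PCNA clamp that replication factor C loads. FEN1 and LIG1 trim and seal the lagging-strand fragments, and replication protein A coats the exposed single strands. In a knockout screen, a guide against a gene that cells need to multiply becomes rarer with time, because the cells that carry it leave fewer descendants.

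Libraries held 3647823 to 69526489 counts. In the knockout screens the most abundant 1% of guides took 2.93% to 3.88% of counts at day 0 and untreated day 20, but 41.4% in RKO under oxaliplatin, 9.55% in SW620 at 0.38 µM and 31.5% at 0.5 µM. In RKO activation under oxaliplatin they took 52.8%, with a median of 21 counts per guide. Guides without a target in the genome, the background of the assay, had a median log2 fold of 0.51 in RKO and 0.25 in SW620 for untreated day 20 over day 0. Folds below are log2 ratios of counts scaled by median-ratio size factors, with a pseudocount of 5, and a gene's value is the median of its guides. The fold of a guide with few counts depends on the pseudocount. Scaling to the non-targeting guides instead would lower the median of all genes by 0.49 in RKO and 0.27 in SW620, and values are given relative to the median-ratio scale.

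Without drug, knockout guides against the replication proteins were lost from both lines, and far more from RKO. In RKO the 40 genes had a median log2 fold of -2.85 for untreated day 20 over day 0, against 0.09 over all genes tested, and ranged from -5.43 for GINS2 to -0.66 for MCM10. In SW620 their median was -0.64, against 0.04 over all genes, with a range of -1.73 for PCNA to -0.10 for ORC2. Every member had a median below 0 in both lines, as did 38.6% of all genes in RKO and 43.1% in SW620. A gene was called depleted when its guides ranked low together, by robust rank aggregation with an exact p adjusted over all genes by Benjamini-Hochberg, at a threshold of 0.10. By that rule 35 of 40 members fell in RKO, where 9.86% of 19093 genes did, and 17 of 40 fell in SW620, where 3.79% of 19099 genes did. With guides grouped by their mean count over both libraries in place of the day 0 count, 18 members rather than 35 passed in RKO, where 6.69% of genes did. In SW620 14 rather than 17 passed, and the share of all genes there under that grouping is not given here. The 17 members that passed in RKO under every alternative were MCM2, MCM3, MCM5, MCM6, MCM7, GINS1, GINS2, GINS4, CDC45, ORC3, ORC6, RFC2, RFC3, PRIM1, PRIM2, POLD3 and POLE2, and the other 18 lost the call under at least 1. In SW620 MCM7, RFC5, POLD2 and RPA3 lost theirs under at least 1. No member was called enriched in either line, a call made for 0.0157% of genes in RKO and 0.0% in SW620. In that direction 0 members had an unadjusted p below 0.05 in either line, as 5.79% of all genes had in RKO and 5.87% in SW620.

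In the counts themselves, member guides made up 0.207% of all guides. They took 0.0364% of counts in RKO at untreated day 20 (95% Wilson interval 0.0357% to 0.037%), against 0.154% at day 0 (0.152% to 0.155%). In SW620 they took 0.126% at untreated day 20 (0.125% to 0.127%), against 0.192% at day 0 (0.191% to 0.193%). Such intervals, like the floor of 3 counts set below for guides at 0, hold counting error and nothing else, because amplified reads carried no molecular identifiers and cannot be counted as molecules. At untreated day 20 in RKO, 28 of 160 member guides were at 0 counts (17.5%), while 1.83% of the other targeting guides were. In SW620 1 of 160 was. The median member guide had a scaled count of 24.2 at untreated day 20 in RKO, against 201 at day 0, and of 273 at untreated day 20 in SW620, against 405 at day 0. The median over all targeting guides at day 0 was 263 in RKO and 418 in SW620, so member guides were already lower at day 0, more so in RKO. Whether guides had been lost before day 0 was not tested.

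**Figure D1:**
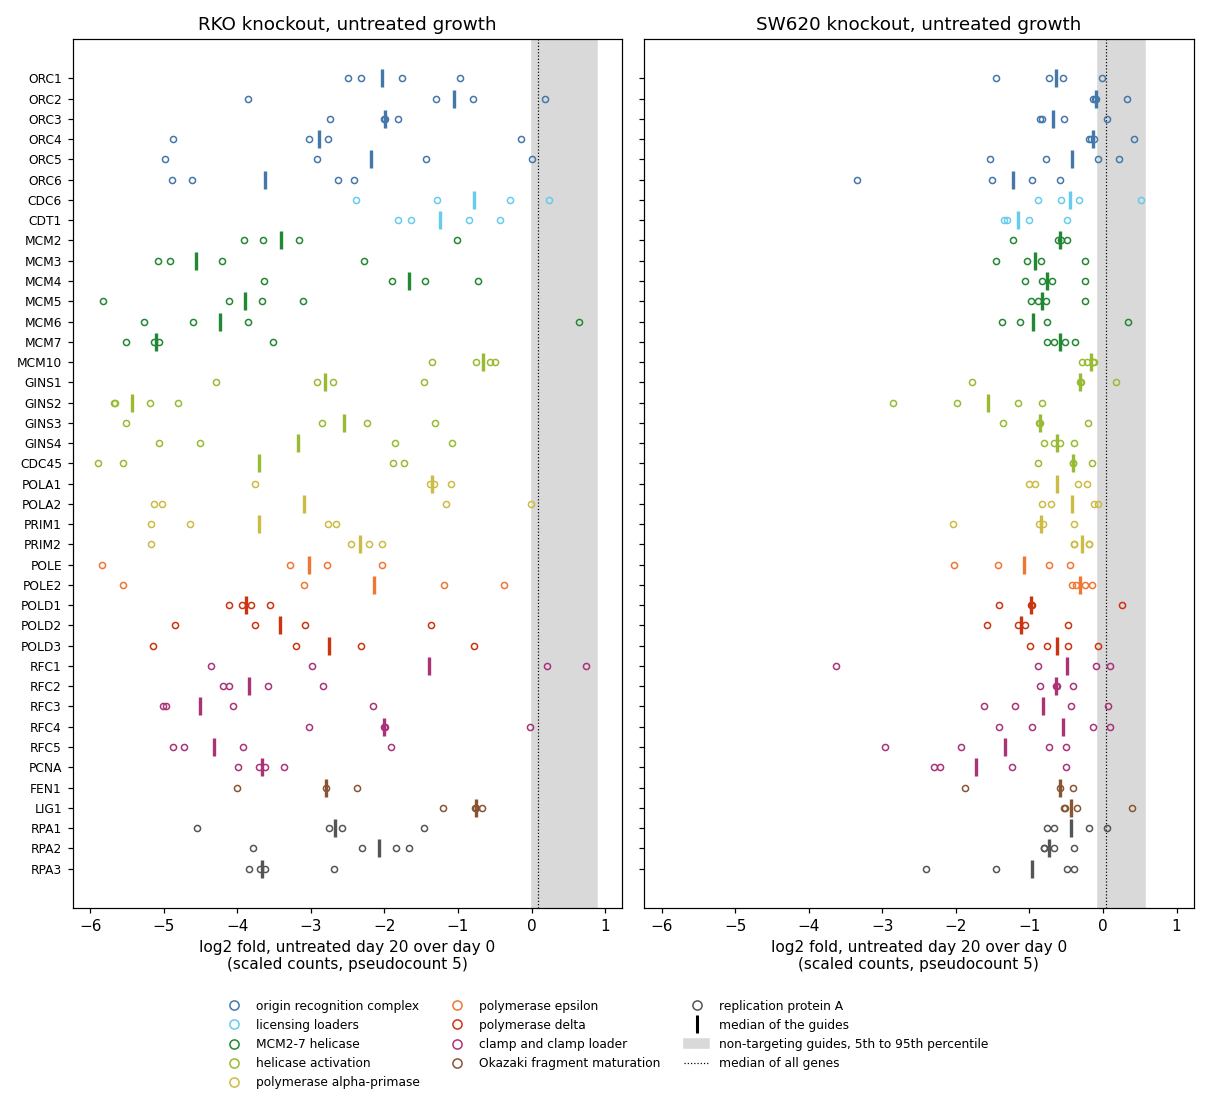
Log2 fold of each guide, untreated day 20 over day 0, in RKO knockout (left) and SW620 knockout (right), for the 40 genes grouped by complex. Open circles are single guides with a scaled day 0 count of at least 20, vertical bars are the median of a gene's guides, the grey band holds the non-targeting guides between their 5th and 95th percentiles, and the dotted line is the median of all genes. In RKO 154 of 159 circles lie below the 5th percentile of the non-targeting guides, and in SW620 143 of 159 do, but closer to it, against 44.9% of all guides in RKO and 38.1% in SW620.

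The MCM2-7 ring, the motor of the helicase, was lost as a whole in RKO. All 6 subunits fell there, with medians of -5.10 (MCM7), -4.56 (MCM3), -4.23 (MCM6), -3.89 (MCM5), -3.40 (MCM2) and -1.67 (MCM4). The 4 MCM7 guides had 11, 6, 5 and 0 counts at untreated day 20 in RKO, against 189, 410, 393 and 297 at day 0. In SW620 they had 318, 581, 575 and 422 counts at untreated day 20, against 685, 1375, 1120 and 1071 at day 0. The guide at 0 in RKO was thus at least 104-fold lower on the scaled counts, while the SW620 guides were each within a log2 fold of -0.76 to -0.38. MCM7 was called in both lines (exact p of robust rank aggregation, Benjamini-Hochberg adjusted, 0.0015 in RKO and 0.0374 in SW620). In SW620 5 of the 6 subunits fell, with medians of -0.95 (MCM6), -0.93 (MCM3), -0.83 (MCM5) and -0.59 (MCM2 and MCM7), and MCM4 had a median of -0.76 with an adjusted exact p of 0.133.

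The factors that turn the loaded ring into an active helicase, the GINS subunits, CDC45 and MCM10, gave both the largest and the smallest loss in RKO. GINS2, a subunit of the 4-part GINS complex, had guides with 0, 11, 7 and 5 counts at untreated day 20 in RKO, against 329, 472, 481 and 575 at day 0. In SW620 those guides had 70, 336, 481 and 177 counts, against 818, 1122, 1286 and 1068 at day 0. GINS2 thus fell with all 4 guides in both lines, to -5.43 in RKO (adjusted exact p = 3.2e-05) and to -1.56 in SW620 (adjusted exact p = 0.0011). The other GINS subunits fell to -3.18 (GINS4), -2.81 (GINS1) and -2.55 (GINS3) in RKO. In SW620 GINS3 (-0.86) and GINS4 (-0.62) fell, and GINS1 had a median of -0.31 with guides between -1.78 and 0.18. CDC45, which joins the ring together with GINS, fell to -3.71 in RKO and had -0.41 in SW620 (adjusted exact p = 0.577). MCM10, a factor that helps activate the assembled helicase, fell least of the members called in RKO. Its guides had 597, 230, 190 and 301 counts at untreated day 20 in RKO, against 847, 375, 477 and 410 at day 0, a median of -0.66 (adjusted exact p = 0.0469). All 4 MCM10 guides were lower, between -1.36 and -0.50, and none was near 0 counts. In SW620 the MCM10 median was -0.17.

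Promoter sequences are shown for GINS2 and MCM7, the 2 members with the lowest RKO medians, because activation guides are directed at promoters and because genes of this group are known targets of E2F, the transcription factor family that turns on S-phase genes. They run from 250 bases before to 50 after the annotated start (RefSeq, GRCh38.p14), on the gene's strand from 5′ to 3′, GINS2 at chr16:85688905-85689204 on the minus strand and MCM7 at chr7:100101348-100101647 on the minus strand. Capitals mark matches to the E2F-type motifs TTTCCCGC, TTTCGCGC, TTTGCCGC and TTTGGCGC on either strand.
GINS2: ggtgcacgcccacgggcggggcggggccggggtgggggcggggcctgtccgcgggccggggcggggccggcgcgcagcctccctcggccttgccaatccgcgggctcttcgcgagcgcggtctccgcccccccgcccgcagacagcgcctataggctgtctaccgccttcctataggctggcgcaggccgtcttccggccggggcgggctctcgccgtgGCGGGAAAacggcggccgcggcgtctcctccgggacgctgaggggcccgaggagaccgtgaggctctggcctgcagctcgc
MCM7: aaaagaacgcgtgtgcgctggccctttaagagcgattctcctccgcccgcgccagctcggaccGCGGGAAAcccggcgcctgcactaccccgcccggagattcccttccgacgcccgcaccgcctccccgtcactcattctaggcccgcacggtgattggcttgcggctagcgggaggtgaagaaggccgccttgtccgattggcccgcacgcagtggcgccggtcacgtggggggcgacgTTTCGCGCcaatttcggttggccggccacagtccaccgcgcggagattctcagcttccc
Promoters of 34 of the 40 members were read from the table, and 17 of them held at least 1 match. The share was 4.36% of 14259 promoters of genes in the knockout library, and 2 of 26 proteasome promoters. Mean GC content was 64.7% in the members' promoters and 61.6% in the library's. A match is a description of these letters and not evidence that a factor binds there.

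The origin recognition and loading proteins were not all called in RKO. The origin recognition complex marks origins and is the platform for loading. In RKO 4 of its 6 subunits fell, namely ORC6 (-3.62), ORC4 (-2.89), ORC1 (-2.04) and ORC3 (-1.99), while ORC5 (-2.18, adjusted exact p = 0.226) and ORC2 (-1.05, adjusted exact p = 0.217) did not pass. ORC6 was the one subunit called in both lines. Its guides had 0, 0, 42 and 51 counts at untreated day 20 in RKO, against 190, 156, 242 and 336 at day 0. In SW620 they had 247, 31, 190 and 411 counts, against 726, 556, 826 and 931 at day 0. All 4 guides were lower in both lines, and the ORC6 median in SW620 was -1.23 (adjusted exact p = 0.00967). In SW620 ORC2 and ORC4 had the medians nearest 0 of the 40 genes, at -0.10 and -0.14.

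CDC6 and CDT1, which bring the MCM ring to the origin recognition complex, were not called in RKO. CDT1 was the one member called in SW620 and not in RKO. Its guides had 631, 263, 373 and 180 counts at untreated day 20 in SW620, against 1328, 983, 1127 and 693 at day 0. In RKO they had 114, 78, 58 and 153 counts, against 353, 103, 211 and 269 at day 0. The CDT1 medians were close in the lines, -1.24 in RKO (adjusted exact p = 0.249) and -1.15 in SW620 (adjusted exact p = 0.00828), and the difference guide by guide had a median of -0.16 and did not pass. CDC6 had a median of -0.79 in RKO and -0.45 in SW620, neither called. Its guides had 91, 38, 2 and 578 counts at untreated day 20 in RKO, against 109, 98, 38 and 466 at day 0, so that 1 guide was higher and 3 were lower.

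The primer-making polymerase alpha-primase fell as a whole in RKO. Its members there were PRIM1 (-3.71), the catalytic primase subunit, POLA2 (-3.09), PRIM2 (-2.33) and POLA1 (-1.36), the polymerase subunit. In SW620 only PRIM1 passed among these 4, with a median of -0.84 and an adjusted exact p of 0.017, and the medians of the other 3 lay between -0.63 and -0.29.

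Of the extending polymerases, the 5 subunits among the 40 genes fell in RKO. The small accessory subunits POLD4 (0.09), POLE3 (-0.66) and POLE4 (-0.14), which are not among them, were not called there. POLD1, the catalytic subunit of polymerase delta, had 0, 3, 0 and 0 counts at untreated day 20 in RKO, against 87, 139, 71 and 108 at day 0. In SW620 the same guides had 214, 156, 74 and 84 counts, against 266, 467, 227 and 349 at day 0. Nearly nothing of POLD1 was left in RKO, with a median of -3.88 (adjusted exact p = 0.0213), while in SW620 the first guide was higher once counts were scaled (0.26) and the median of -0.98 did not pass there (adjusted exact p = 0.132). The accessory subunits POLD2 and POLD3 fell to -3.42 and -2.76 in RKO, and POLD2 fell to -1.11 in SW620. Of polymerase epsilon, the catalytic subunit POLE fell in both lines, to -3.03 in RKO and -1.08 in SW620. Its partner POLE2 fell to -2.14 in RKO (adjusted exact p = 0.0808) and had -0.31 in SW620.

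PCNA and the replication factor C subunits that load it fell in RKO with 1 exception. RFC3 (-4.51), RFC5 (-4.32), RFC2 (-3.84), PCNA (-3.66) and RFC4 (-2.0) passed, and RFC1 (-1.39) did not. PCNA was the member with the largest loss in SW620. Its guides had 279, 27, 439 and 35 counts at untreated day 20 in SW620, against 592, 235, 1561 and 278 at day 0, a median of -1.73 (adjusted exact p = 0.00465). In RKO they had 6, 0, 40 and 0 counts, against 145, 99, 578 and 62 at day 0. No PCNA guide kept a large share of its counts in RKO, but 2 of the 4 started below 100 counts. RFC5 (-1.33) and RFC2 (-0.64) also fell in SW620, and RFC3 (-0.82), RFC4 (-0.55) and RFC1 (-0.49) had values that did not pass.

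The proteins that finish lagging-strand fragments differed from each other in RKO. FEN1, the flap nuclease, fell to -2.79 and LIG1, the ligase, fell to -0.76. LIG1 guides had 254, 144, 160 and 103 counts at untreated day 20 in RKO, against 418, 238, 249 and 237 at day 0, so that all 4 were lower by a like amount. Its adjusted exact p was 0.0351. FEN1 was tested with 3 guides, because another had 0 counts at day 0 in RKO and 4 in SW620. Neither was called in SW620, with medians of -0.58 for FEN1 and -0.44 for LIG1. The subunits of replication protein A fell in RKO to -3.66 (RPA3), -2.67 (RPA1) and -2.07 (RPA2), and RPA3 fell in SW620 to -0.97. RPA2 was the call nearest the threshold in RKO, with an adjusted exact p of 0.09, and RPA3 started from few counts there (75, 36, 79 and 211 at day 0).

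Across the lines, 16 members were called depleted in both, 19 in RKO alone by this threshold, 1 in SW620 alone and 4 in neither (CDC6, ORC2, ORC5 and RFC1). The 16 shared members are 45.7% of the 35 called in RKO and 94.1% of the 17 called in SW620. For all genes, the 546 shared calls are 29.0% of the 1882 in RKO and 75.4% of the 724 in SW620.

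Single guides showed where a gene's value rested on a few of them. Of 159 member guides measured in both lines, 142 lay below the 5th percentile of the non-targeting guides in both, 12 in RKO only, 1 in SW620 only and 4 in neither. Of all 75857 targeting guides, 16115 lay below it in both, 17957 in RKO only, 12772 in SW620 only and 29013 in neither. The 4 member guides in neither belonged to MCM6, RFC1, CDC6 and ORC2. The MCM6 guide had 834 counts at untreated day 20 in RKO, against 506 at day 0, while the other 3 MCM6 guides had 8, 9 and 13 counts, against 543, 215 and 457. One MCM6 guide was thus retained and 3 were nearly gone, a range of 5.92 between guides on the log2 scale, the widest of the 40 genes in RKO, followed by POLE2 (5.17) and POLA2 (5.12). For POLA2, 2 guides lay at -5.13 and -5.03 and another at -0.01. In SW620 the widest ranges were those of RFC1 (3.73), ORC6 (2.76) and RFC5 (2.45). RFC1 was split in both lines. Its guides had 249, 7, 11 and 255 counts at untreated day 20 in RKO, against 140, 267, 129 and 210 at day 0. In SW620 they had 344, 461, 8 and 126 counts, against 480, 740, 252 and 353 at day 0. Thus 2 RFC1 guides were lower and 2 higher in RKO, and 1 guide was strongly lower in SW620. Over the 159 guides, folds in RKO and SW620 had a Pearson r of 0.33 and a Spearman rho of 0.34, given as a description since guides of a gene share a target and guides keep their numbering, but not their libraries, across lines. Folds below -1 were found for 136 of the 159 guides (85.5%) in RKO and 38 (23.9%) in SW620, against 12.3% and 2.53% of all targeting guides.

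The question whether the lines differ was tested on the guide folds themselves, RKO minus SW620. The 40 members had a median difference of -2.11, against 0.01 over all genes, and 25 of 40 were called lower in RKO, where 7.99% of genes were. No member was called higher in RKO, a call made for 0.0367% of genes. At an unadjusted p below 0.05, 1 member was higher, RFC1 with a median difference of 0.64, as were 6.15% of all genes. The largest differences called were those of MCM7 (-4.58), GINS2 (-3.68), RFC3 (-3.58), MCM3 (-3.40) and CDC45 (-3.20). Among the complexes, 5 of 6 MCM2-7 subunits, 5 of 6 helicase activation factors, 3 of 4 polymerase alpha-primase subunits and 3 of 6 origin recognition subunits were called, and neither loader was. PCNA had a difference of -2.08 (adjusted exact p = 0.294) and CDT1 one of -0.16. The proteasome, another complex that dividing cells need, had a median difference of -2.09 over 31 subunits with 18 called, so a median difference of this size was also seen outside replication. When each line's folds were first put on that line's own spread, an alternative chosen after the data were seen, 15 members were called lower in RKO, where 5.6% of genes were. Of the 25 calls, those of GINS3, ORC6, RFC5, POLA2, PRIM1, POLD1, POLE, FEN1, RPA1 and RPA2 were lost under at least 1 alternative. Line, Cas9 cutting and number of divisions cannot be told apart with these libraries.

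**Figure D2:**
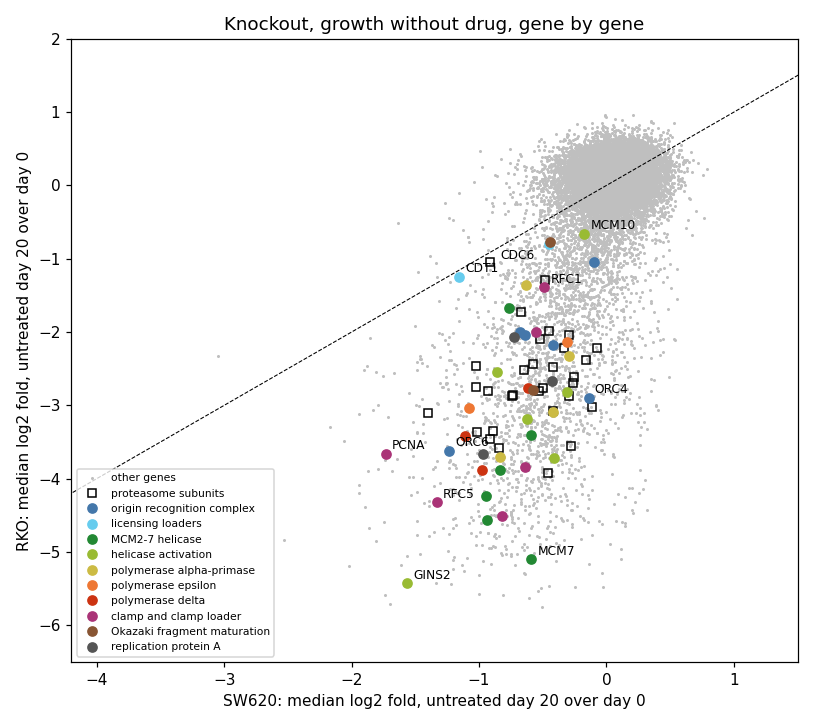
Median of the log2 folds of a gene's knockout guides, untreated day 20 over day 0, in RKO (vertical axis) and SW620 (horizontal axis). Filled circles are the 40 replication genes coloured by complex, open squares 31 proteasome subunits and grey points the other genes, with the dashed line at equal folds. All 40 replication genes lie below the line, CDT1 nearest to it, and MCM7 and GINS2 lowest.

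Both lines gave proteasome medians close to those of the replication genes, -2.75 in RKO with 17 of 31 called and -0.52 in SW620 with 12 of 31 called. A list of 40 other replication genes, such as kinases, checkpoint mediators and chromatin assembly factors that act beside the fork, was lost less, with a median of -1.14 in RKO (14 of 40 called) and -0.27 in SW620 (8 of 40 called). Those called in both lines were CDC7 (-2.74 in RKO and -1.29 in SW620), the kinase that triggers helicase activation, WDHD1, TIMELESS, DNA2, RNASEH2A, MCMBP and TOP2A. MCMBP, which binds MCM proteins, had -4.48 in RKO and -0.61 in SW620. The topoisomerase TOP2A had -4.07 in RKO and -1.07 in SW620. Of that list 9 genes were called lower in RKO than in SW620, namely TOPBP1, WDHD1, TIMELESS, DNA2, MCMBP, CHTF8, TOP2A, CHAF1B and ASF1A.

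The effect of oxaliplatin was asked first against untreated day 20. No member was called depleted or enriched in any of the 3 knockout comparisons. In RKO only 15 of 40 members could be tested, because the guides of the other 25 were too few at untreated day 20 (fewer than 3 guides with a scaled count of 20 or more). A member reached this test only where enough of its guides were left without drug, so the 15 do not stand for the 40. They were MCM2, MCM4, MCM10, GINS1, GINS4, CDC6, CDT1, ORC2, ORC3, ORC5, RFC2, RFC4, POLA1, POLE2 and LIG1. None had an unadjusted p below 0.05 in either direction, where 5.68% of all genes were depleted and 5.42% enriched at that threshold. With 15 members tested, 0 is near those shares. After adjustment, 0.0111% of genes were called depleted and 0.295% enriched. The 2 largest medians among them were those of GINS4 (1.57) and RFC4 (1.51). The RFC4 guides had 450, 17, 20 and 80 counts under oxaliplatin, against 201, 15, 45 and 67 at untreated day 20, so that the first and the fourth were higher and the third was lower in counts but slightly higher once scaled. The second was below the filter.

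In SW620 all 40 members were tested against untreated day 20 at both doses. Their median was -0.37 at 0.38 µM, against 0.04 over all genes, and -0.65 at 0.5 µM, against -0.10 over all genes. Scaling to the non-targeting guides would shift the all-gene medians by -0.25 at 0.38 µM and -0.95 at 0.5 µM. Genes called depleted were 0.0% at each dose, and those called enriched 0.0419% at 0.38 µM and 0.0105% at 0.5 µM. At an unadjusted p below 0.05 there were 5 members depleted and 0 enriched at 0.38 µM, and 1 depleted and 2 enriched at 0.5 µM. Of all genes, 5.71% were depleted and 5.37% enriched at that threshold at 0.38 µM, and 5.05% and 5.54% at 0.5 µM. The 2 largest medians at 0.38 µM were those of LIG1 (-3.00) and POLE (-1.92). LIG1 guides had 1379, 10, 105 and 2 counts at 0.38 µM, against 466, 465, 257 and 281 at untreated day 20. They split widely, with 1 guide higher and 3 lower, and the adjusted exact p was 0.577. At 0.5 µM the 2 largest were FEN1 (-2.75) and MCM6 (-2.70), with an adjusted exact p of 1 for each. The spread of untargeted guides was wide in these comparisons, -1.04 to 1.5 at 0.38 µM and -2.69 to 3.62 at 0.5 µM (5th to 95th percentile), which limits what can be seen for a single gene.

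Against day 0, where all 40 members could be tested, 12 of 40 members fell in oxaliplatin-treated RKO cells, where 3.14% of genes did. They were MCM2, MCM3, MCM5, MCM7, GINS1, GINS2, GINS4, CDC45, ORC6, RFC2, PRIM1 and PRIM2. At an unadjusted p below 0.05, 24 of 40 members were depleted, as were 8.84% of all genes. The members' median was -2.20 under oxaliplatin, and it was -2.85 without drug. GINS2 guides had 34, 41, 35 and 28 counts under oxaliplatin, 0, 11, 7 and 5 at untreated day 20 and 329, 472, 481 and 575 at day 0. MCM7 guides had 14, 30, 26 and 27 counts under oxaliplatin, 11, 6, 5 and 0 at untreated day 20 and 189, 410, 393 and 297 at day 0. Guides of both genes were low in both day 20 libraries. Each of these guides had more counts under the drug than without it, but these are the 2 genes with the lowest untreated medians. All member guides together had 9236 counts under oxaliplatin and 12562 at untreated day 20. The median member guide had a scaled count of 41.4 under oxaliplatin and 24.2 at untreated day 20. The GINS2 median over day 0 was -2.29 under oxaliplatin and -5.43 untreated. The MCM7 median was -2.32 under oxaliplatin and -5.10 untreated. RFC2 had the smallest adjusted exact p, 0.000796, with a median of -2.82. In the treated RKO library 2 of 160 member guides were at 0 (1.25%), as were 0.856% of the other targeting guides, and member guides took 0.0273% of counts (95% Wilson interval 0.0267% to 0.0279%). The count of 12 rests on the method, as 6 members passed with guides grouped by mean count, 7 with rank shares up to 0.10 and 20 without standardising. The shares of all genes passing under these alternatives are not given here, so the changes are not read as particular to the members. The calls of MCM2, MCM5, GINS2, RFC2 and PRIM1 held under every alternative, and the other 7 were lost under at least 1, with GINS4 passing in 2 of 9. Both comparisons share the day 0 library, so the values are set side by side and no difference is read from them.

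The licensing loaders were not called under the drug, and their values are set side by side in the same way. CDT1 had a median over day 0 of -2.19 under oxaliplatin and -1.24 untreated in RKO, and CDC6 one of -1.87 under oxaliplatin and -0.79 untreated. In SW620 CDT1 had -1.15 untreated, -2.23 at 0.38 µM and -2.78 at 0.5 µM, and CDC6 had -0.45, -1.61 and -2.53 in the same order. CDT1 guides had 631, 263, 373 and 180 counts untreated, 262, 312, 99 and 15 at 0.38 µM and 1437, 9, 6 and 57 at 0.5 µM. Which guides were low differed between the doses, and the first guide was the most abundant of the 4 at 0.5 µM. The other complexes in SW620 did not all move the same way between untreated and 0.38 µM. Medians were higher at 0.38 µM for polymerase delta (0.02 and -0.98 untreated), MCM2-7 (-0.69 and -0.80) and polymerase alpha-primase (-0.45 and -0.52). The rest were lower, as with FEN1 and LIG1 together (-1.99 at 0.38 µM and -0.51 untreated) and polymerase epsilon (-1.74 at 0.38 µM and -0.70 untreated). None of the loaders' drug values passed the test, either against day 0 or against untreated day 20.

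In SW620 the members' median over day 0 was -0.64 untreated, -0.92 at 0.38 µM and -1.54 at 0.5 µM. The comparisons share the day 0 library and the doses are read side by side. At 0.38 µM 18 of 40 members were depleted at an unadjusted p below 0.05, as were 6.53% of all genes. GINS2 was the only member called at that dose, where 0.325% of genes were. It had a median of -3.67 and an adjusted exact p of 0.0509, and it did not pass without standardising. Its guides had 3, 22, 505 and 104 counts at 0.38 µM and 6, 39, 1255 and 199 at 0.5 µM, against 818, 1122, 1286 and 1068 at day 0. The same guide was the most abundant in both treated libraries. No member was called at 0.5 µM, where 0.0314% of genes were, and the 2 largest medians there were RPA3 (-3.97) and MCM6 (-3.67). Values scattered at that dose, with 7 of 40 members and 5.51% of all genes having an unadjusted p below 0.05, and medians of the 40 between -3.97 and 1.60. ORC2, the highest of them, had guides with 20, 6335, 1137 and 500 counts at 0.5 µM, against 635, 719, 1249 and 1130 at day 0, so that the second guide was far higher and the first was lower (5.39 and -2.61). Among the other replication genes, WDHD1, TIMELESS, DNA2 and MCMBP were called in RKO and RNASEH2A in SW620 at 0.38 µM against day 0.

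**Figure D3:**
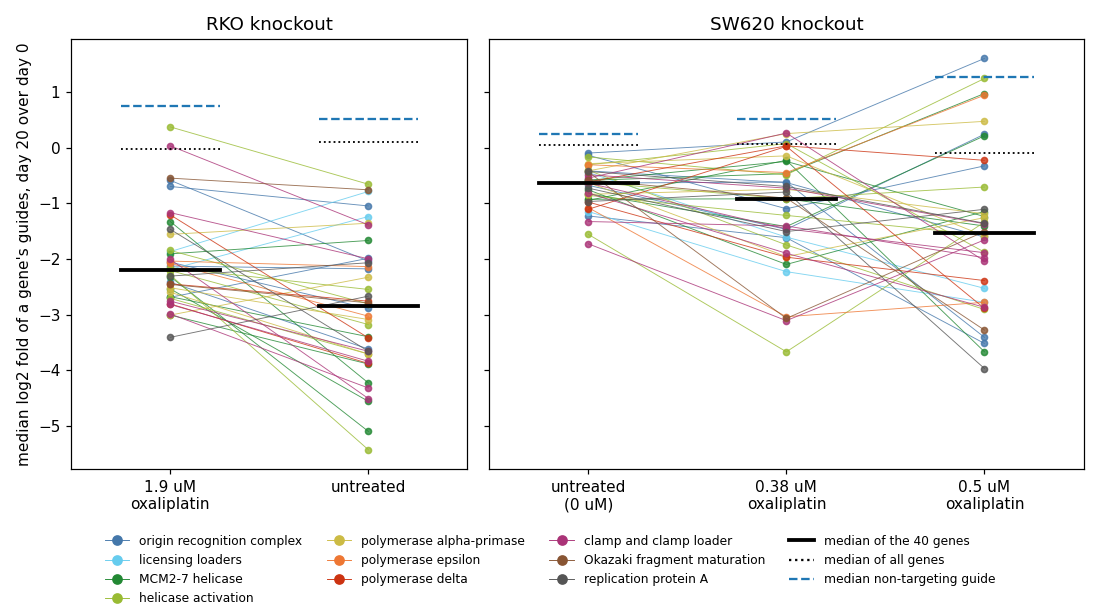
Median log2 fold over day 0 of the knockout guides of each of the 40 genes (points joined across conditions, coloured by complex) in RKO (left) and SW620 (right). Solid bars are the median of the 40 genes, -2.20 under oxaliplatin and -2.85 untreated in RKO, and -0.64, -0.92 and -1.54 from low to high dose in SW620, with dotted bars for all genes and dashed bars for non-targeting guides. The spread between genes is widest at 0.5 µM in SW620.

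In the activation screens, where guides raise transcription of the gene they are directed at, no replication gene was called in either direction in any of 5 comparisons. Of the 40 members 39 were tested, all but ORC1, whose single guide had -0.34 in RKO and -0.52 in SW620 at untreated day 20 over day 0. Without drug their medians were -0.05 in RKO and -0.01 in SW620, against 0.02 and 0.01 over all genes, and every tested member lay between -0.94 and 0.56. Genes called depleted were 0.128% in RKO and 0.266% in SW620, and 0.0% were called enriched in each. At an unadjusted p below 0.05 there were 2 members depleted and 1 enriched in RKO, and 2 depleted and 4 enriched in SW620. Of all genes, 5.45% were depleted in each line at that threshold, and 5.41% in RKO and 5.3% in SW620 were enriched. The largest medians in RKO were those of POLE (-0.94, on 2 guides) and MCM4 (-0.60). POLE guides had 97 and 563 counts at untreated day 20, against 570 and 1225 at day 0, and its other guide had 4 and 6. In SW620 RFC1 had 0.56 and FEN1 had -0.68. The FEN1 guides had 44, 22 and 94 counts at untreated day 20, against 440, 246 and 584 at day 0, in a library with a median of 62 counts per guide.

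Under oxaliplatin the activation medians of the 39 members, over untreated day 20, were -0.07 in RKO, -0.17 at 0.38 µM and 0.01 at 0.5 µM in SW620. In RKO the median of all genes was -0.81 and that of the non-targeting guides 2.25. The members' median would be -0.53, -2.05 and 0.52 under 3 other scalings, so its direction is not fixed. The median of all genes would be -1.51, -2.96 and -0.05 in the same order, below that of the members each time. The RKO library under oxaliplatin stood apart, and 19 of 118 member guides were at 0 in it (16.1%), as were 14.4% of the other targeting guides. The largest medians there were CDT1 (-5.17) and POLD3 (5.09). CDT1 guides had 0, 5 and 0 counts under oxaliplatin, against 349, 194 and 443 at untreated day 20, and POLD3 guides had 609, 8370 and 1740, against 1037, 400 and 719. The CDT1 median depends on the pseudocount, since its first and last guides were at 0 counts under oxaliplatin. Against day 0, a different control, the floor of 3 counts places the first at least 11.3-fold lower and the last at least 8.98-fold lower on the median-ratio scale. These bounds change with the scaling. Neither CDT1 nor POLD3 passed over untreated day 20, with adjusted exact p of 0.966 and 0.997. In SW620 the largest were MCM10 (-2.76) and POLE2 (-2.12) at 0.38 µM, and RPA3 (-2.52) and GINS2 (2.28) at 0.5 µM. Genes called depleted and enriched were 0.0% and 0.00533% in RKO, 0.00533% and 0.0266% at 0.38 µM, and 0.0107% and 0.0373% at 0.5 µM. At an unadjusted p below 0.05, 1 member was depleted and 3 enriched in RKO, 3 and 1 at 0.38 µM, and 2 and 2 at 0.5 µM. These counts are close to the 5% that an unadjusted threshold passes among all genes (4.98% to 5.24% in these comparisons). Whether the activation guides raised expression of these genes was not measured in the files used here.

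**Figure D4:**
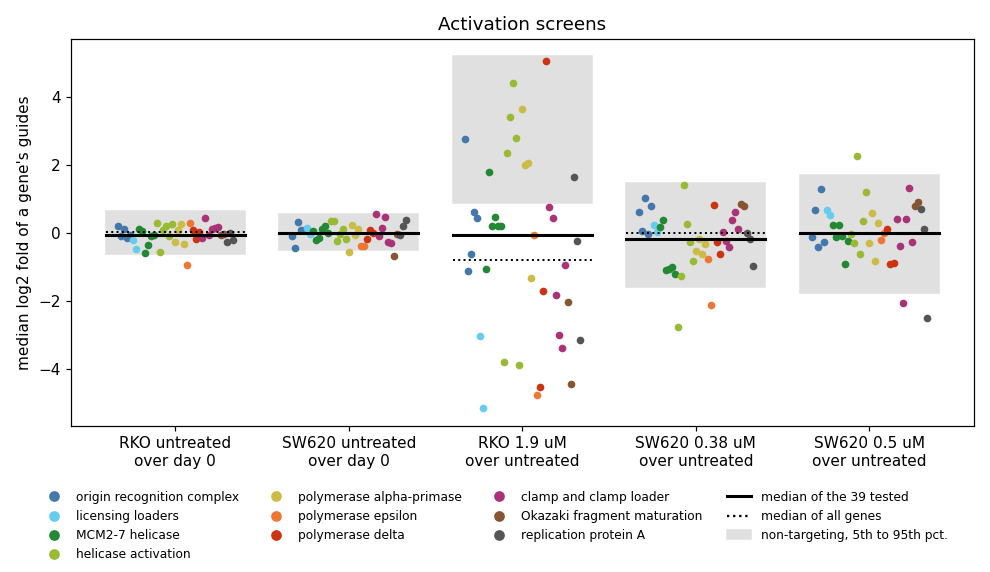
Median log2 fold of the activation guides of the 39 tested replication genes (points, coloured by complex) in 5 comparisons, with grey boxes for single non-targeting guides between their 5th and 95th percentiles. Solid bars are the median of the 39 genes and dotted bars that of all genes. Points lie within -0.94 and 0.56 in both comparisons without drug and spread between -5.17 and 5.09 in RKO under oxaliplatin.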

How the data were processed

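Guides amplified from genomic DNA were counted in 14 libraries. The authors deposited raw counts per guide for each screen, and a second table per screen on a normalized signal scale that was found to be the counts times 1 constant per column (largest relative difference 6.7e-16). The method behind these was not given in the sources used here. The tools listed, per the submitters' processing notes, are MAGeCK 0.5.7 and cutadapt 4.0, without their roles. All columns matched a sample by name, and 0 were left over. The files name guides by number and hold no guide sequences.

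Counts were scaled by median-ratio size factors. Log2 folds used a pseudocount of 5, on guides with a scaled count of at least 20 in the control library (in both day 0 libraries for the line difference). They were centred and scaled by median and median absolute deviation within 50 bins of the control count, and the guides of a gene were combined by robust rank aggregation, with rank shares up to 0.25. The exact one-sided p under uniform ranks, in each direction, was adjusted by Benjamini-Hochberg over all genes with at least 3 (knockout) or 2 (activation) guides and called below 0.10. The procedure was also run on simulated counts with known folds, but the outcome is not given here and is not used as support. With 1 library per condition there are 0 residual degrees of freedom for edgeR 4.0.16, which was used for TMM factors only. Binning and filtering by the control count, not the mean of both libraries, keeps a guide's own loss out of its bin. This choice, the 40 members and the lists were made with earlier results of these data known.

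All 40 members were described by complex and call in the growth comparisons. In other comparisons the called members were named, otherwise the 2 with the largest medians in size, and further members, POLD4, POLE3 and POLE4 were named after their values were seen. Other replication genes were named where called in both lines without drug, in the line difference or under the drug. Alternatives were TMM factors, non-targeting guides as the scale, the authors' constants, a pseudocount of 1, no filter, a mean-count filter, mean-count bins, no standardising, and rank shares up to 0.10. Python 3.11.15, numpy 2.4.6, pandas 2.3.3, scipy 1.17.1, matplotlib 3.10.9 and R 4.3.3 were used. All 40 members carry current symbols in RefSeq, and promoters came from RefSeq on GRCh38.p14.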

Additional observations from a re-analysis of the deposited data

Results flagged for a closer look

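The 25 members called lower in RKO than in SW620 are listed because the difference between lines passed its own test, robust rank aggregation on the guide-by-guide difference of log2 folds, untreated day 20 over day 0, RKO minus SW620. Among helicase subunits the median differences were -2.54 (MCM2), -3.40 (MCM3), -3.10 (MCM5), -2.99 (MCM6) and -4.58 (MCM7). Among helicase activation factors they were -2.45 (GINS1), -3.68 (GINS2), -2.02 (GINS3), -2.46 (GINS4) and -3.20 (CDC45). For the origin recognition complex they were -1.59 (ORC3), -2.74 (ORC4) and -1.65 (ORC6), and for the clamp loader -3.14 (RFC2), -3.58 (RFC3) and -3.10 (RFC5). For polymerase alpha-primase they were -2.38 (POLA2), -2.81 (PRIM1) and -2.14 (PRIM2). For the extending polymerases they were -2.83 (POLD1), -2.24 (POLD3) and -1.82 (POLE). FEN1 had -2.14, RPA1 -1.96 and RPA2 -1.48. The calls of GINS3, ORC6, RFC5, POLA2, PRIM1, POLD1, POLE, FEN1, RPA1 and RPA2 were lost under at least 1 alternative. The 40 replication genes had a median difference of -2.11, and the 31 proteasome subunits one of -2.09.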

How the results depend on the processing

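Of the counts of called members, 221 values under the alternatives stayed within 1.5 times the count reported and 6 did not. Most of the 221 were counts of 0 that stayed 0. All 6 that moved came from results where members had been called, so the 221 are not read as a measure of stability. With bins of the mean count, members called depleted in RKO at untreated day 20 over day 0 were 18 in place of 35, and under oxaliplatin over day 0 they were 6 in place of 12. That comparison, RKO under oxaliplatin over day 0, gave 20 without standardising, of which 10 were among the 12, and 7 with rank shares up to 0.10. GINS2 in SW620 at 0.38 µM over day 0, the 1 call there, was lost without standardising, leaving 0. With folds standardised within each line, chosen after the data were seen, 15 members in place of 25 were called lower in RKO. Under the other alternatives the counts lay between 26 and 37 in RKO without drug, 14 and 20 in SW620 and 19 and 28 for the line difference, and every count of 0 stayed 0. The shares of all genes called are not given here for most of these alternatives, so the changes are not read as particular to the members. Of single member calls at untreated day 20 over day 0 in RKO and SW620, 436 values kept their side of the threshold, 32 lost it and 0 changed direction. Those counts leave out the line difference, where 10 of 25 calls were lost under at least 1 alternative. They also leave out the oxaliplatin comparisons over day 0, where 7 of 12 calls were so lost in RKO and the 1 call at 0.38 µM in SW620. A guide-rank test across 3 or 4 guides, 1 library per condition and few counts for several genes (RPA3, POLD1 and PCNA in RKO) limit these results. No paired analysis was possible because each condition has 1 library and the labels carry no replicate numbers.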
